A study of Mus musculus with 10 samples.

Results

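The Ly6 surface protein genes Ly6a, Ly6c1, Ly6c2, Ly6e, Ly6d, Ly6i, Ly6g and Ly6k were followed through cultures of mouse T helper type 2 (TH2) cells. They are 8 of the 49671 genes in the count table. All 8 lie in the Ly6 cluster of chromosome 15, and each was found by matching its Ensembl identifier to its symbol. The members were chosen by their measured counts in the diet comparison, since several sit at or near 0 counts under 1 diet while a neighbour changes the other way. Their diet values therefore describe the members and carry no test. RNA came from C57BL/6 mice labelled WT, whose naive CD4+ T cells had been polarised toward TH2 and harvested on day 5. The deficient group (7 libraries) came from mice bred and reared without UV light on a diet free of vitamin D metabolites. The regular group (3 libraries) came from wild-type mice kept under the same conditions on a standard diet whose vitamin D3 content was 400 IU per kg. The experiments used offspring of the second generation, and no further treatment was given. The labels give neither age nor sex and do not say that each library came from its own mouse, so p-values cover only how far these samples differ from each other, which may be technical variation.

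Ly6 proteins are small, share a fold held by disulphide bonds (the LY6/uPAR domain), and most are tied to the outer leaflet of the cell membrane by a glycosylphosphatidylinositol (GPI) anchor. In mouse immune cells they serve as surface markers of lineage and activation: Ly6a is Sca-1, the stem cell antigen that activated T cells also carry, and Ly6c1 and Ly6c2 encode the Ly6C antigen of monocytes and memory T cells. Ly6e, or TSA-1, marks immature thymocytes, and both Ly6a and Ly6e are known interferon-responsive genes. The Ly6 locus also carries haplotypes that differ between inbred strains, with Ly6a levels on T cells among the differences.

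The libraries held 5800698 to 6462146 counts in the regular group and 7029207 to 13433276 in the deficient group. The labels also assign a batch: 2 regular and 5 deficient libraries belong to batch 1, and 1 regular (library 3) and 2 deficient (libraries 6 and 7) to batch 2. Deficient library 5 carries the label of batch 1 but stands with libraries 6 and 7 in most values given here. Deficient libraries 1 and 3 had 657 and 733 CPM (counts scaled to a common library total) of Xist, the long noncoding RNA of the inactive X chromosome, against at most 0.345 CPM in the other 8. All 13 T cell and TH2 identity genes listed were detected in both groups and passed the filter. Of these, 9 were lower and 2 higher in the deficient libraries, beside 29.0% and 29.9% of all genes tested (edgeR adjusted p below 0.05). Gata3, the regulator that defines TH2 cells, ran at 62 ± 4.49 CPM in the regular and 36.7 ± 3.95 CPM in the deficient group, and the TH2 cytokine gene Il4 at 15.1 ± 0.617 and 16.5 ± 5 CPM. Ifng, the TH1 cytokine gene, ran at 4.48 ± 2.77 and 106 ± 69.5 CPM. Cd4 ran at 723 ± 13.8 CPM in the regular group (SD, n = 3) and 335 ± 30.9 CPM in the deficient group (SD, n = 7).

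Across the cluster, Ly6a went from about 1 CPM in the regular libraries to 123 CPM or more in the deficient ones, while Ly6e, its neighbour, went from about 245 CPM to 95.5 CPM. Ly6c1, Ly6c2 and Ly6g had 0 counts in every regular library. The filter on low counts kept 5 of the 8 genes: Ly6a, Ly6c1, Ly6c2, Ly6e and Ly6d. Just inside it stood Ly6c1 with 75 counts over all libraries, and just outside it Ly6k with 45. Ly6a, Ly6c1, Ly6c2 and Ly6d passed through the deficient libraries alone, so the 5 do not stand for the family. The ranges of the diet groups did not overlap for 4 of the 5, with 3 higher (Ly6a, Ly6c2, Ly6d) and 1 lower (Ly6e) in the deficient libraries. Over all 13260 genes tested, 51.7% did not overlap, 30.1% being higher and 21.7% lower, and 58.9% passed the diet test (edgeR adjusted p below 0.05); nothing is read from the members' count against these shares. The plot of member levels by library shows each value.

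**Figure D1:**
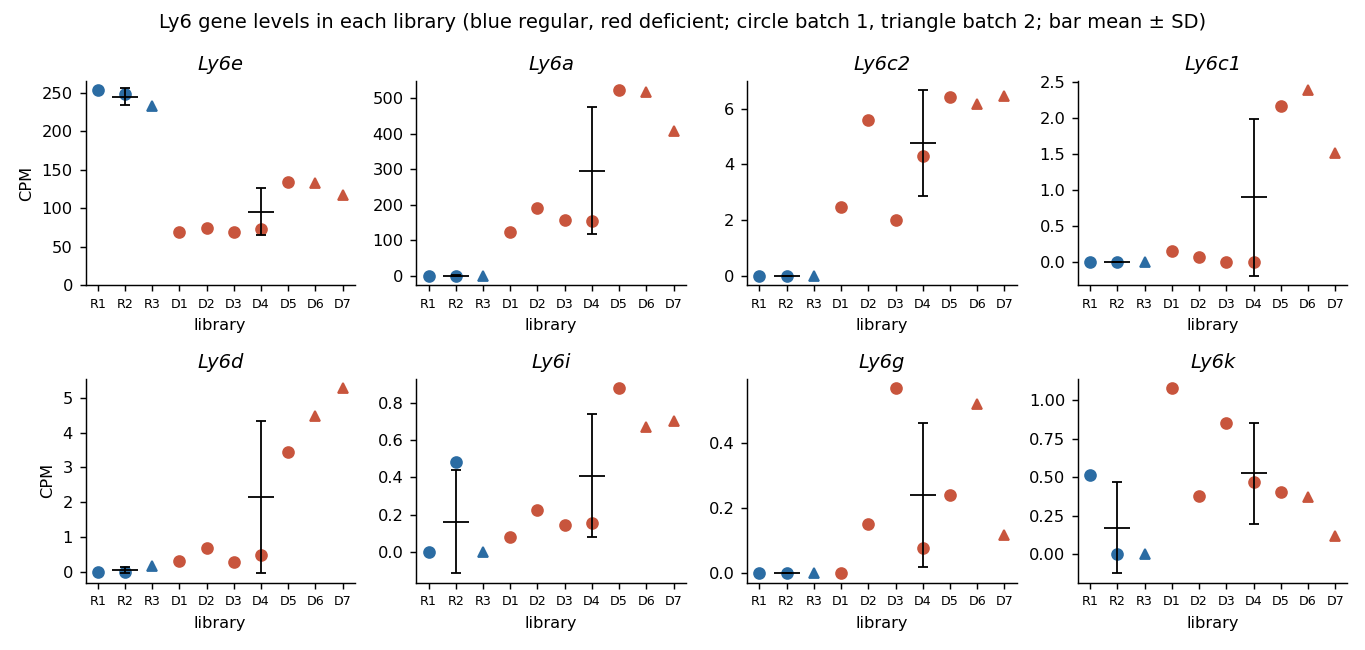
CPM of the 8 Ly6 genes in each library (R1 to R3 regular in blue, D1 to D7 deficient in red; circles batch 1, triangles batch 2; black bars mean ± SD of a group), each gene on its own linear axis. Ly6e is lower in all 7 deficient libraries, Ly6a is higher in all 7, and Ly6c1 exceeds 0.155 CPM in D5, D6 and D7 only.

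Ly6e (ENSMUSG00000022587, chromosome 15, 74955051 to 74959905, plus strand, GRCm38) was the only member at a high level in the regular libraries. It measured 254, 248 and 233 CPM in regular libraries 1 to 3, and 68.4, 73.8, 69.4, 72.4, 134, 133 and 117 CPM in deficient libraries 1 to 7. Every deficient library lay below every regular one, and libraries 5, 6 and 7 lay above the other 4. The group means were 245 ± 10.7 CPM (SD, n = 3) and 95.5 ± 31.1 CPM (SD, n = 7), a log2 difference of -1.47 with a standard error of 0.238 from the edgeR fit. The median over all genes tested was 0.02. Fitted within batch 1 the log2 difference was -1.68, and within batch 2, with its 1 regular library, it was -0.95.

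Ly6a (ENSMUSG00000075602, 74994877 to 74998031, minus strand) had 7, 4 and 7 counts in the regular libraries, or 1.21, 0.641 and 1.08 CPM. In deficient libraries 1 to 7 it measured 123, 190, 158, 155, 522, 516 and 408 CPM. The groups were far apart, and libraries 5, 6 and 7 again stood above the other deficient libraries. The means were 0.977 ± 0.297 CPM (SD, n = 3) and 296 ± 179 CPM (SD, n = 7). On the log2 scale the fitted difference was 8.20 with a standard error of 0.948, at rank 6 of the 13260 genes tested. Pooled over libraries, 24135 counts stood against 18, a ratio of CPM of 309 with a 95% exact counting interval of 195 to 521. Such intervals cover counting error only. The log2 difference was 7.86 within batch 1, 8.66 within batch 2 and 7.31 without deficient libraries 5 to 7. In bulk RNA, fewer cells that carry a gene and less of its RNA per cell cannot be told apart.

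Between the diets the 2 genes moved apart, yet among the deficient libraries they were high and low together. The 3 deficient libraries with the most Ly6a (5, 6 and 7) also had the most Ly6e, 117 to 134 CPM against 68.4 to 73.8 CPM in the other 4. In the plot of Ly6a against Ly6e, the deficient libraries form a lower and an upper group, both left of and above the regular libraries. Levels of different genes were compared per kilobase (kb) of exon. On that scale Ly6e exceeded Ly6a 86.1 ± 32 times in the regular libraries (SD, n = 3). In the deficient libraries Ly6a exceeded Ly6e 8.99 ± 2.72 times (SD, n = 7), with 5.66 as the lowest and 12.2 as the highest ratio. The order of the 2 genes was thus reversed in every deficient library.

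**Figure D2:**
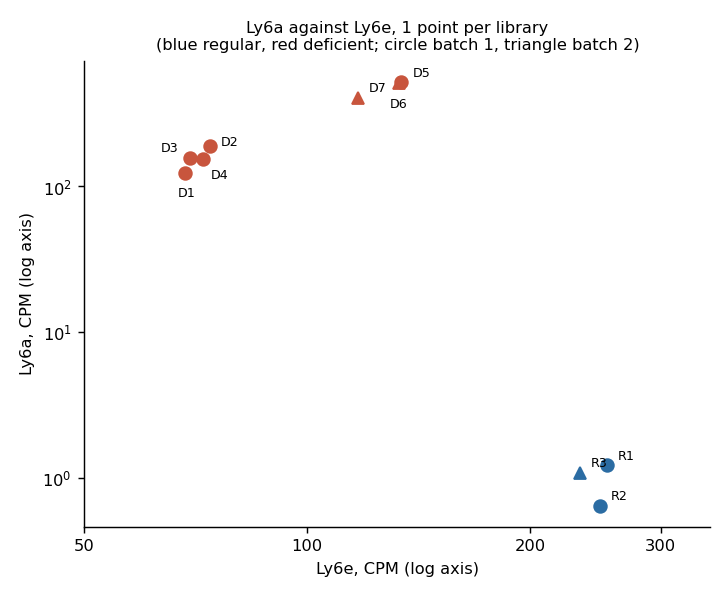
Ly6a against Ly6e in CPM on log axes, 1 point per library (R1 to R3 regular in blue, D1 to D7 deficient in red; circles batch 1, triangles batch 2). D5, D6 and D7 are higher in both genes than D1 to D4, while the regular libraries hold the highest Ly6e and the lowest Ly6a.

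The make-up of the family level turned over with it. Ly6e made up 98.1 ± 0.503% of the summed CPM per kb of the 8 genes in the regular libraries (SD, n = 3) and 10.4 ± 2.87% in the deficient ones (SD, n = 7). Ly6a went from 1.23 ± 0.375% to 87.3 ± 2.73%. The summed level itself was 62.6 to 68.6 CPM per kb in the regular libraries. In deficient libraries 1 to 4 it was 123, 181, 153 and 151 CPM per kb, and in libraries 5 to 7 it was 479, 475 and 381. All deficient sums lay above all regular sums per kb. Without the division by length, the summed CPM of the family overlapped between diets, at 234 to 255 CPM and 196 to 670 CPM, since Ly6e has the longest exon model of the 8 (3784 bases, against 1205 for Ly6a).

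**Figure D3:**
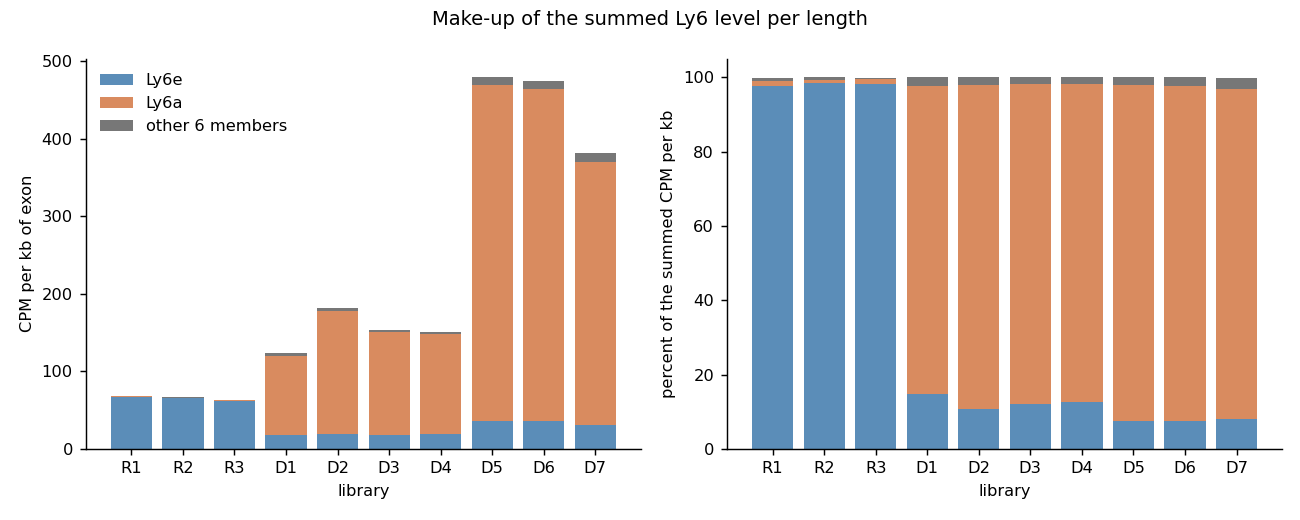
Summed level of the 8 Ly6 genes per kb of exon in each library (left, CPM per kb) and as a percentage of the sum (right), with Ly6e, Ly6a and the other 6 genes stacked. Ly6e fills 97.6 to 98.6% of the regular bars and 7.41 to 14.7% of the deficient bars.

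Ly6a, Ly6c1, Ly6c2, Ly6i and Ly6g are close copies of each other, which bears on how reads are assigned to them. Their coding sequences were aligned from the annotated transcripts. Ly6a was 86.3% identical to Ly6i, 83.1% to Ly6g, 81.8% to Ly6c1 and 81.6% to Ly6c2, but 52.7% to Ly6e, 51.4% to Ly6d and 47.6% to Ly6k. The first 120 coding bases show this, with capitals marking bases that differ from Ly6a in the 3 close copies; Ly6e, which differs throughout, is in lower case.
Ly6a: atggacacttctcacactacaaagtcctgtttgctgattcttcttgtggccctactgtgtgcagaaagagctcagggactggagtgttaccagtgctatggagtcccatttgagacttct
Ly6i: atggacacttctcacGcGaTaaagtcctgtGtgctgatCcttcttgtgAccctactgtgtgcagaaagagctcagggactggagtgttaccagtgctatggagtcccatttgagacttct
Ly6c1: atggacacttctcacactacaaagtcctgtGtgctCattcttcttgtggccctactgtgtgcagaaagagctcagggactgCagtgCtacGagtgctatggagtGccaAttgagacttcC
Ly6c2: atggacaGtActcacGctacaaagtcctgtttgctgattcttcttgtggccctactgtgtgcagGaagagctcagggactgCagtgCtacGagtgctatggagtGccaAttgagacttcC
Ly6e: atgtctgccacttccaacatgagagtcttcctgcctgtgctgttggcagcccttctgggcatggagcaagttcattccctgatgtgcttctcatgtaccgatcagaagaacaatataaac
The 5′ ends of the 4 close copies read almost alike, so short reads from there may match several genes. Of the 50-base stretches of its exons, Ly6a shared 19% with another gene, Ly6c1 32.8%, Ly6c2 14.5% and Ly6i 4.76%, while Ly6e and Ly6d shared 0%. The treatment of reads with several matches is not given in the sources used here. The split among Ly6a, Ly6c1, Ly6c2 and Ly6i is therefore uncertain, while Ly6e and Ly6d have no such stretches.

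Ly6c2 (ENSMUSG00000022584, 75108158 to 75111970, minus strand), the Ly6C gene with the higher counts here, had 0 counts in all 3 regular libraries. In deficient libraries 1 to 7 it measured 2.47, 5.61, 1.99, 4.3, 6.41, 6.18 and 6.45 CPM. All 7 lay above the regular libraries, with libraries 1 and 3 lowest. Those are the 2 libraries of high Xist, whose part in the Ly6c2 level was not tested. Pooled, 393 counts stood against 0, and 0 counts allow up to 0.162 CPM over the regular group (3 counts), so Ly6c2 was at least 30.1-fold higher in the deficient libraries. Libraries 5, 6 and 7 were again the upper 3, but library 2 (5.61 CPM) lay close below them, whereas for Ly6a, Ly6e and Ly6d a wide gap separated them from the rest.

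Ly6c1 (ENSMUSG00000079018, 75044018 to 75048830, minus strand) also had 0 counts in the regular libraries. Its deficient values were 0.155, 0.0758, 0, 0, 2.16, 2.38 and 1.52 CPM. Libraries 5, 6 and 7 held 72 of its 75 counts, and libraries 3 and 4 had none, so the groups overlap at 0. Pooled, Ly6c1 was at least 5.75-fold higher in the deficient libraries, a bound that rests on those 3 libraries. In deficient libraries 1 to 4, where Ly6c2 ran at 1.99 to 5.61 CPM, Ly6c1 did not exceed 0.155 CPM. The coding sequences of the 2 genes are 97.7% identical, with 9 differing bases in 393 and an identical run of 188 bases, so part of either count may belong to the other gene.

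The region upstream of the pair differs more than the coding part. RefSeq promoter windows on GRCm38.p6 were matched for 3 of the 8 genes (Ly6c1, Ly6c2 and Ly6g). The 300-base windows of Ly6c1 and Ly6c2 were 73.8% identical over 282 aligned columns. The 250 bases before each start are given below, and their part in the levels of the pair was not tested. Both are on the minus strand, read 5′ to 3′, and capitals mark TATAAA.
Ly6c1, chr15:75048838-75049087: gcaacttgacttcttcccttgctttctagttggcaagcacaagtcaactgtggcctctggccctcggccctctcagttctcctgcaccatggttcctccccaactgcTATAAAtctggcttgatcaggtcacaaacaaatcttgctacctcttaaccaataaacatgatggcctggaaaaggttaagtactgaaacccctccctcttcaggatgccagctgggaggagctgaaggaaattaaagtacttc
Ly6c2, chr15:75111972-75112221: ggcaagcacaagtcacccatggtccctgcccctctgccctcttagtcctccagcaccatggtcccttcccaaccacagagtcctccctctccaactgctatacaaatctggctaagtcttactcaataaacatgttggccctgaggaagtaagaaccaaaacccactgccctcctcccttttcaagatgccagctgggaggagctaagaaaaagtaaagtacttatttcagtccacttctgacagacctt
Ly6c1 holds TATAAA once and Ly6c2 does not. On either strand, TATAAA occurs in 13.6% of the 32851 promoter windows in the table. Another 4 motifs were searched on both strands in all 3 windows. The interferon-gamma activated site, TTCNNNGAA, occurs in 8.3% of all windows. A motif of the GATA factors, AGATAA, occurs in 11.2%, and a T-box motif, AGGTGTGA, in 1.28%. The core of the interferon-stimulated response element, 2 copies of GAAA with a gap of 2 bases between them, occurs in 3.44%. None of these 4 was found in the windows of Ly6c1, Ly6c2 or Ly6g, while TATAAA was also found once for Ly6g. A missing match says only that these letters are not in these windows.

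Ly6d (ENSMUSG00000034634, 74762056 to 74763620, minus strand), which encodes the ThB antigen of lymphoid progenitors and B cells, had 1 count in the regular libraries, in library 3 (0.155 CPM). Deficient libraries 1 to 7 measured 0.309, 0.682, 0.285, 0.469, 3.45, 4.47 and 5.28 CPM. Every deficient library lay above every regular one, and libraries 5, 6 and 7 lay clearly above the other deficient libraries. Pooled, 169 counts stood against 1, a ratio of CPM of 38.9 with a 95% counting interval of 6.89 to 1545.

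The remaining members stayed near the limit of detection. Ly6i (ENSMUSG00000022586, 74979534 to 74983430, minus strand) lies between Ly6e and Ly6a; it had 0, 0.481 and 0 CPM in the regular libraries and 0.0773 to 0.882 CPM in the deficient ones. Its 3 highest values were again in deficient libraries 5, 6 and 7 (0.882, 0.67 and 0.704 CPM), but regular library 2 lay above the other 4. The pooled ratio of 2.53 has a counting interval of 0.794 to 12.9, which includes equal levels. So the Ly6 gene next to Ly6a, and its closest coding relative among the 8, remained below 0.9 CPM where Ly6a exceeded 400 CPM.

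Ly6g (ENSMUSG00000022582, 75155240 to 75159126, plus strand), the neutrophil antigen Ly6G, had 0 counts in the regular libraries and 18 in all over the deficient ones. Its deficient values ran from 0 CPM in library 1 over a median of 0.152 to 0.569 CPM in library 3, so the groups overlap at 0. Against the limit of 3 counts, it was at least 1.38-fold higher in the deficient libraries. Neutrophil markers were near 0 as well: the 11 listed genes summed to 0.172 to 0.481 CPM in the regular and 0.298 to 0.996 CPM in the deficient libraries, and none passed the filter.

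Ly6k (ENSMUSG00000044678, 74796874 to 74799986, minus strand), known from the testis and needed for sperm function, had 0.517, 0 and 0 CPM in the regular libraries. In the deficient libraries it ran from 0.117 CPM (library 7) over a median of 0.401 to 1.08 CPM (library 1). The groups overlap, and Ly6k, like Ly6g, was not highest in libraries 5 to 7. The pooled ratio was 3.22, with a counting interval of 1.03 to 16.2. Ly6k shares 32.7% of its 50-base stretches with Gm17189, an overlapping antisense gene that had 0 counts in every library; the strand setting of the counting is not given in the sources used here.

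Around the members, the cluster was mostly silent. Of 30 neighbouring symbols listed, 24 were in the table and 6 passed the filter. In the diet fit (edgeR quasi-likelihood, Benjamini-Hochberg adjusted p below 0.05), 2 of the 6 were higher and 1 lower in the deficient libraries, where 29.9% and 29.0% of all genes tested were. Top1mt, the mitochondrial topoisomerase at the far edge, rose from 6.31 ± 1.31 CPM (SD, n = 3) to 14.5 ± 1.37 CPM (SD, n = 7), with a log2 difference of 1.11 (SE 0.156, edgeR adjusted p = 2.31e-05). Jrk also rose, by 0.74 (SE 0.237, edgeR adjusted p = 0.0146), but missed the threshold without regular library 1 (0.46, adjusted p = 0.112) and within batch 2 (0.42, adjusted p = 0.287). Arc, the activity-regulated cytoskeleton gene, fell by 1.25 (SE 0.451, edgeR adjusted p = 0.0431), a call lost under 12 of 22 alternatives, among them without any 1 of the regular libraries or of deficient libraries 2, 4, 6 and 7 (adjusted p 0.0685 to 0.194) and within batch 1 (-0.93, adjusted p = 0.245).

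Lynx1, a nicotinic receptor modulator of the LY6 family next to Ly6d, measured 1.03, 1.28 and 1.08 CPM in the regular libraries and 0.618, 1.67, 1.71, 1.33, 4.73, 5.36 and 3.64 CPM in the deficient ones. The groups overlap, and libraries 5, 6 and 7 were highest, as for Ly6d. Its log2 difference of 1.17 (SE 0.636) did not pass over all libraries (edgeR adjusted p = 0.135) and passed without deficient library 1 (1.33, adjusted p = 0.0421). Them6 (0.04, adjusted p = 0.947) and Zfp41 (0.01, adjusted p = 0.929) differed by less than their standard errors, and their signs changed under several settings. Of the other listed neighbours, Psca, Slurp1, Slurp2, Lypd2, Ly6h, Ly6l, Gpihbp1, Cyp11b1, Cyp11b2, Gml2, Adgrb1, 2010109I03Rik, BC025446, I830127L07Rik and D730001G18Rik did not exceed 0.321 CPM in any library, and Ly6f, Gml and Gm17189 had 0 counts throughout. The plot of ratios along the cluster shows Ly6e below 1 between Ly6k and Ly6i, with Ly6a above 100 as the next tested gene.

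**Figure D4:**
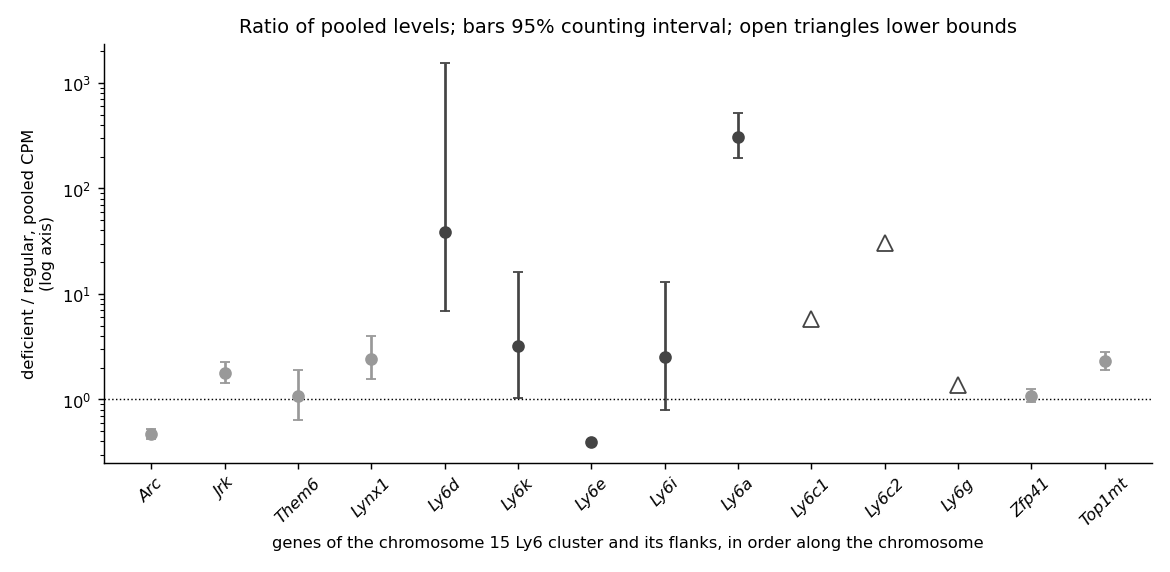
Ratio of pooled CPM, deficient over regular, on a log axis for the Ly6 genes (dark) and the 6 tested neighbours (grey), in their order along chromosome 15. Bars are 95% counting intervals and open triangles are lower bounds for genes with 0 regular counts; Ly6e (0.394) and Ly6a (309) lie on opposite sides of 1.

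Batch did not enter the choice of the members and was tested. In the fit with diet and batch over 10 libraries, 0 of 13260 genes passed for batch (percent called 0; 7.64% had an unadjusted p below 0.05), and DESeq2 and limma-voom also called 0, with 897 and 1281 genes at an unadjusted p below 0.05. The fitted values of all 5 Ly6 genes tested were higher in batch 2, but none passed. The log2 differences were 0.99 for Ly6a (edgeR adjusted p = 0.636), 0.37 for Ly6e (0.683) and 0.58 for Ly6c2 (0.667). They were 1.94 for Ly6c1 (0.674) and 2.18 for Ly6d (0.625, unadjusted p = 0.00889). For Ly6a, Ly6c1, Ly6c2 and Ly6d, with 0 to 7 counts in each regular library, they describe the deficient libraries almost alone. For Ly6e the regular library of batch 2 (233 CPM) lay below those of batch 1 (254 and 248 CPM). The lack of calls for batch depends on deficient library 5. Without it, 652 genes passed for batch, and Ly6a was 1.53 higher in batch 2 (edgeR adjusted p = 0.00148), while Ly6e (0.52, adjusted p = 0.138) and Ly6c2 (0.76, adjusted p = 0.191) still did not pass. Ly6d passed where genes were not filtered on counts (2.17, adjusted p = 0.000998).

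The difference between the batches in the diet effect was tested as well. No gene passed (0 called; 4.06% had an unadjusted p below 0.05), by edgeR, by DESeq2 (268 genes at an unadjusted p below 0.05) or by limma-voom (358). For Ly6e the diet difference was 0.73 less negative in batch 2 (edgeR adjusted p = 0.946), and without deficient library 5 it was 0.97 less negative (adjusted p = 0.000432). That value rests on 1 regular and 2 deficient libraries in batch 2. Ly6a gave 0.80, and 0.27 to 1.36 over its 16 alternatives. Its regular side holds 7 and 4 counts in batch 1 and 7 in the 1 library of batch 2. The value therefore cannot show whether its diet difference varied with batch.

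To place the spread among the deficient libraries, the 5 genes most like each tested member were sought over those 7 libraries (Pearson r of log2 CPM, 12540 genes with a mean of at least 1 CPM). The points share their group and, as a base, the gap between libraries 5 to 7 and the rest, which many genes show: 797 genes (6.36%) reached an r of 0.9 with Ly6a, 775 (6.18%) with Ly6e, 638 (5.09%) with Ly6c1 and 564 (4.5%) with Ly6d, against 123 (0.981%) with Ly6c2. Nearest to Ly6a was Ifng (r = 0.998), the TH1 cytokine interferon-gamma, followed by Rpl10, Gabarap and Serpina3g. Ifng measured 3.62, 2.24 and 7.58 CPM in the regular libraries and 36.8, 63.1, 56.3, 51.1, 198, 189 and 146 CPM in the deficient ones, and rose by 4.55 on the log2 scale (edgeR adjusted p = 0.00243). Its order of the 7 deficient libraries was that of Ly6a.

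Nearest to Ly6e were Ms4a4b, Chd7 and Serpinb9 (each r = 0.998) and Egln3 (0.995). Serpinb9, which encodes an inhibitor of granzyme B, ran from 202 to 222 CPM in deficient libraries 1 to 4 and from 412 to 466 CPM in libraries 5 to 7. Ly6c1 was nearest to Stat2 (0.996), Pim1, Ccdc74a and Hk2, and Ly6d to Il23a (0.998), Snx29, Trim14, Ido1 and Cxcr5. Ly6c2 was nearest to Gnai1 (0.991), Lpxn, Gm44292, Snx13 and Dcbld1. With 7 libraries in a lower and an upper group, a high r mainly restates that grouping.

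Ly6a and Ly6e respond to interferon, so the interferon genes were read in the same libraries. Of 34 interferon-stimulated genes, 27 were tested, 18 rose and 3 fell, beside 29.9% higher and 29.0% lower over all genes tested. The median log2 difference was 0.96, against 0.02 over all genes tested. The 3 that fell were Samhd1 (-1.04, edgeR adjusted p = 0.00135), Ddx58 (-0.48, 0.00318) and Ifit2 (-0.35, 0.0358). Tap1, the peptide transporter of antigen presentation, rose by 1.14 (edgeR adjusted p = 6.12e-09), the RNA-sensing kinase gene Eif2ak2 by 1.25 (2.11e-06) and the nucleic acid sensor gene Zbp1 by 2.01 (0.000787). Bst2, or tetherin, a surface protein that is itself GPI-anchored, rose by 0.88 (edgeR adjusted p = 4.83e-06). Without deficient libraries 5 to 7, 12 rose and 2 fell of 23 tested, beside 3606 and 3536 of all 12116 genes in that fit. Within batch 1, 9 rose and 2 fell of 26, beside 3417 and 3262 of all 13809 genes in that fit. The summed list ran at 1547 to 1633 CPM in the regular libraries, 1555 to 1748 in deficient libraries 1 to 4 and 2409 to 2582 in libraries 5 to 7. Ly6e was lower in the deficient group, as were Samhd1, Ddx58 and Ifit2, while 18 of the 27 genes were higher. Samhd1 ran at 559 to 574 CPM in the regular libraries, 232 to 244 in deficient libraries 1 to 4 and 332 to 408 in libraries 5 to 7.

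Of 18 interferon receptor and signal genes tested, 5 rose and 7 fell, with a median of -0.24, beside 29.9% higher and 29.0% lower over all genes tested. The type I receptor genes Ifnar1 (-0.81, edgeR adjusted p = 9.09e-08) and Ifnar2 (-0.97, 4.42e-07), the interferon-gamma receptor gene Ifngr2 (-1.06, 7.35e-07) and the kinase gene Jak2 (-0.75, 2.06e-07) fell. The part of interferon in the Ly6 values was not tested.

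The GPI anchor pathway, which the Ly6 proteins need to reach the surface, was read as well. Of 29 genes tested, 10 rose and 5 fell, with a median of 0.12, beside the same 29.9% and 29.0% over all genes. Pign, which modifies the anchor's glycan, rose by 0.62 (edgeR adjusted p = 4.45e-07). Pigx (-1.04, edgeR adjusted p = 6.05e-07), a subunit of the first mannosyltransferase, Pgap1 (-1.16, 1.94e-05), which remodels the anchor after attachment, and Pigo (-0.73, 4.28e-05) fell. Of 14 genes tested on a list of other GPI-anchored lymphocyte proteins, 3 rose and 4 fell. The list includes Art2a-ps, whose symbol marks it as a pseudogene. Art2a-ps fell by 4.87 (edgeR adjusted p = 8.42e-06), and Bst1, an ectoenzyme, fell by 2.53 (0.00012) but did not pass within batch 2 (-1.51, 0.0913).

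Outside chromosome 15, genes of the same LY6/uPAR domain were mostly low. Of 29 listed, 5 were tested, and 3 rose and 0 fell, beside 29.9% higher and 29.0% lower over all genes tested. Cd59a, the complement inhibitor CD59, measured 0.345, 0.802 and 0.928 CPM in the regular libraries and 8.27, 9.47, 11.8, 8.52, 7.93, 9.9 and 5.75 CPM in the deficient ones. The groups do not overlap, and libraries 5 to 7 do not stand above the rest. Its log2 difference was 3.53 (SE 0.328, edgeR adjusted p = 3.45e-07). Plaur, the urokinase receptor, rose by 0.99 (edgeR adjusted p = 0.0222) and Ly6g5b by 1.83 (0.0362), but both lost the call under several alternatives: without deficient libraries 5 to 7 only Cd59a passed, and edgeR's adjusted p was above the threshold for Plaur without regular library 2 (0.103) or 3 (0.0737) and for Ly6g5b without regular library 1 (0.127) or 3 (0.114) or deficient library 7 (0.0553).

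Ly6 genes are also markers of other blood cells, so markers of those cells are given beside them. The 11 genes of CD8 T and natural killer (NK) cells summed to 46.7, 43.9 and 88.2 CPM in the regular libraries and 189, 209, 187, 187, 608, 559 and 437 CPM in the deficient ones, the same 3 libraries being highest as for Ly6a, and none of the 11 was at 0 in every regular library. Of 10 tested, 7 rose and 0 fell, beside 29.9% higher and 29.0% lower over all genes tested. The same shares stand beside the B and plasma cell counts below. Among the risers were the receptor genes Klrd1 (3.90, edgeR adjusted p = 2.75e-06), Klrk1 (3.32, 0.00111) and Klrc1 and the perforin gene Prf1 (2.34, 0.00134). Gzma and Cd8b1 also rose but missed the threshold within batch 1 (edgeR adjusted p = 0.0668 and 0.0604). Eomes (0.95, edgeR adjusted p = 0.0682), Klrb1c (0.81, 0.333) and Ncr1 (-0.87, 0.154) did not pass. The 11 B and plasma cell genes summed to 56.4, 54.7 and 148 CPM and to 81, 110, 83.9, 102, 355, 347 and 386 CPM. Deficient library 7 was highest, as for Ly6d. Regular library 3 lay above deficient libraries 1 to 4 in this sum, but below them for Ly6d. Of 10 tested, 2 rose and 1 fell; Ighm rose by 2.44 (edgeR adjusted p = 0.0132) and Cd79a by 2.23 (0.0405), both lost without regular library 2 (0.0556 and 0.0808), Cd79a also without regular library 1 (0.106) or 3 (0.153) or deficient library 2 (0.0579), and Sdc1 fell by 0.80. Cd79b (2.29, edgeR adjusted p = 0.0664) passed without deficient library 5 (1.86, 0.000105).

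Myeloid and stromal markers were lower in level. The counts that follow stand beside the same 29.9% higher and 29.0% lower over all genes tested. Monocyte and macrophage genes summed to 6.55 to 9.78 CPM in the regular and 7.2 to 19.1 CPM in the deficient libraries, with C1qa at 0 throughout; of 3 tested, Adgre1 rose by 1.44 (edgeR adjusted p = 0.0466), a call lost under 8 of 13 alternatives, among them without regular library 1 (0.152), regular library 3 (0.179) and deficient library 3 (0.0562), and Ccr2 did not pass over all libraries but did with DESeq2 (0.83, adjusted p = 0.0473) and within batch 2 (1.28, edgeR adjusted p = 0.0342). Dendritic cell genes summed to 36 to 39.6 CPM and 74.1 to 95.2 CPM, and 3 of 5 tested rose (Batf3, by 1.75, Zbtb46, by 1.24, and Bst2). Bst2, also on the list of interferon-stimulated genes, held 20.7 to 26.1 CPM and 42 to 54.6 CPM of these sums. Endothelial and stromal genes summed to 36.5 to 39.8 CPM and 20.8 to 34.6 CPM, and 1 of 2 tested fell (Pecam1, by 0.61). Of the 13 T cell and TH2 identity genes, 2 rose and 9 fell, among them Cd4 (-1.21), Ccr4 (-1.07), Cd3e (-1.04) and Cd2 (-0.98). The part of these cell types in the Ly6 values was not tested.

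**Figure D5:**
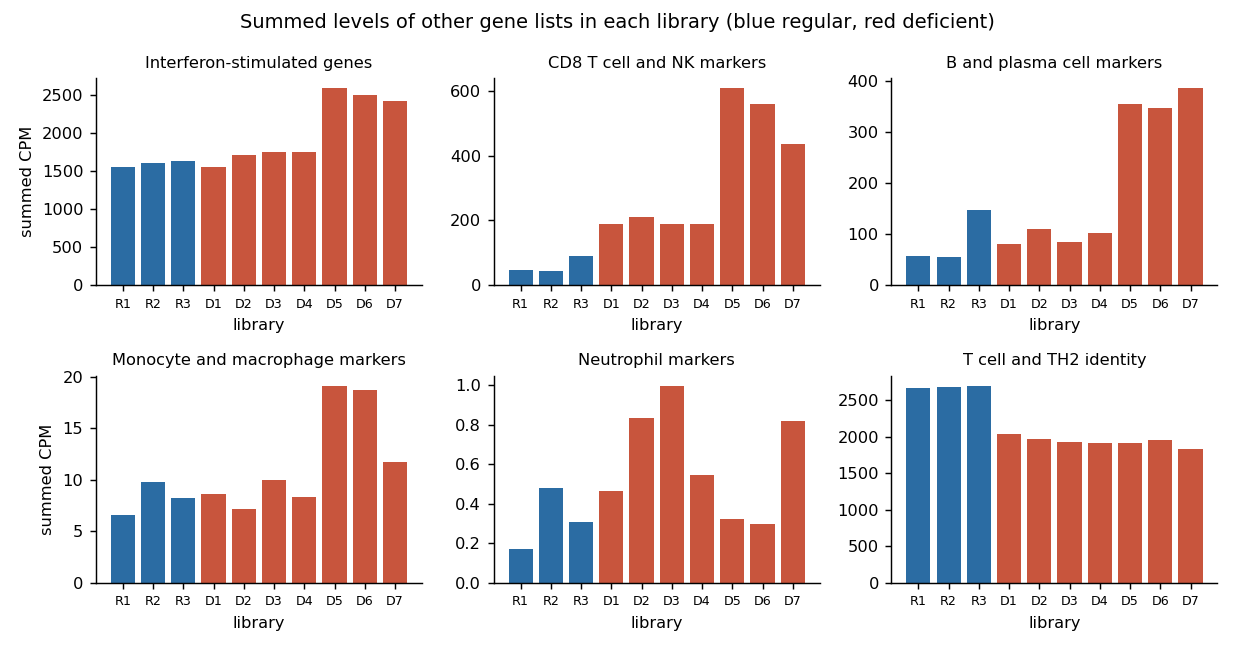
Summed CPM of 6 gene lists in each library (R1 to R3 regular in blue, D1 to D7 deficient in red), each list on its own linear axis from 0. The CD8 T and NK list and the B and plasma list are highest in D5, D6 and D7, the neutrophil list stays below 1 CPM, and the T cell and TH2 list is lower in all deficient libraries.

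Genes whose presence or level is known to vary between inbred mouse strains also differed between the diets, although the labels name C57BL/6 for all samples. This list was drawn up with results of these data known. Of 10 symbols, 7 were tested, 3 being higher and 3 lower in the deficient libraries, beside 29.9% and 29.0% of all genes tested. Trim12a had 0 counts in the regular libraries and 27 to 38.2 CPM in the deficient ones, at least 212-fold higher, and Klra4 had 0 counts against 0.758 to 3.45 CPM. Trim30d had 0.155 to 0.172 CPM against 24.1 to 43.8 CPM. H60b went the other way, from 14.6 to 16.1 CPM to at most 0.117 CPM, as did Gbp2b, from 42.9 to 49.3 CPM to at most 0.821 CPM. The diet groups did not overlap for these 5 genes, as for 51.7% of all genes tested. Within the deficient group, libraries 5 to 7 overlapped the others for Trim12a (34.2 to 38.2 CPM against 27 to 37.5 CPM) but lay above them for Trim30d (34.4 to 43.8 CPM against 24.1 to 32.8 CPM), Klra4 (2.93 to 3.45 CPM against 0.758 to 1.56 CPM) and Gbp2b (0.372 to 0.821 CPM against 0 to 0.227 CPM). Nnt, also on the list, did not differ beyond its standard error (0.10, SE 0.136, edgeR adjusted p = 0.536). The part of genetic background in the Ly6 values was not tested.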

How the data were processed

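Total RNA from day 5 TH2 cultures was sequenced from stranded libraries (globin-depleting TruSeq kit), per the labels. The deposited values are raw read counts per Ensembl gene. STAR 2.7.10a, HTSeq 0.13.5 and GRCm38 are named in the submitters' processing notes; for the strand setting and the annotation release, the sources used here say nothing. Symbols, exons and coding sequences come from GENCODE M21, which matched 49412 of 49671 identifiers; the other 259 hold 0.0226% of counts.

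CPM used plain column totals, and levels per kb the union of exons. Genes kept by filterByExpr (minimum count 10) were scaled by TMM and fitted with edgeR 4.0.16 (R 4.3.3; glmQLFit, robust; diet plus batch), in a script tested on simulated data; adjusted p-values are Benjamini-Hochberg over all 13260 genes, threshold 0.05. The common biological coefficient of variation was 12.4%. DESeq2 1.42.0 and limma 3.58.1 (voom) were alternatives, as were other scalings, filters, batches and left-out libraries. A group at 0 counts has a limit of 3 counts over the group.

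The members, lists and rules were chosen with earlier results of these data known. Named were all members, neighbours with counts, up to 4 genes per list by smallest p (2 where none passed; for marker lists also up to 3 of highest level), and the 5 genes most like each member; a few genes these rules name are not reported here. Ifng, Gata3, Il4, Klra4, Nnt, Xist, Samhd1, Ddx58, Ifit2, Eomes, Klrb1c and Ncr1 are named outside the list rule, with their values seen.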

Additional observations from a re-analysis of the deposited data

How the results depend on the processing

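No paired analysis was possible because the labels give no replicate numbers. In the diet fit, 3959 genes were higher and 3849 lower, and every alternative stayed within 1.5 times of both. The fitted diet difference kept its sign for all 5 Ly6 genes: over 22 alternatives it ran from 7.31 to 8.66 for Ly6a, -1.92 to -0.95 for Ly6e and 5.77 to 8.89 for Ly6c2, and over 16 from 2.46 to 7.25 for Ly6c1 and 3.59 to 6.47 for Ly6d. For batch, 98 genes were higher and 85 lower without the count filter, and leaving out single libraries gave 0 to 392 and 0 to 260, the upper values without deficient library 5. The diet-by-batch fit gave 4 lower genes without the filter, and 0 to 78 higher and 0 to 80 lower without single libraries, the upper values again without deficient library 5. The diet-by-batch value of Ly6d reversed from -1.61 to 1.29 with limma-voom.

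Them6 reversed to -0.63 within batch 2 and to -0.00 with limma-voom and with no batch term, and was -0.28 to 0.52 without single libraries. Zfp41 reversed to -0.05 within batch 2 and -0.03 without the high-Xist libraries, and ran from -0.02 to 0.05 without single libraries. Epcam was 0.05 within batch 2. The cause was not tested. Regular Ly6e was 256 CPM on TMM-scaled totals (245 on plain ones), and its share by longest transcript was 98.7% and 13.3%. Of the 5 genes most like each member, Spearman correlation kept 1 for Ly6a, Ly6c1 and Ly6d and 0 for Ly6c2 and Ly6e, and all 10 libraries kept 1 for Ly6c1 and 0 for the others. The shallower regular libraries limit Ly6c1, Ly6g, Ly6i and Ly6k, where 1 read is a large part of a value.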

Other observations

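Gm8000, a pseudogene between Ly6i and Ly6a that was picked out after its values were seen, measured 0.172, 0.16 and 0 CPM in the regular libraries. In deficient libraries 1 to 7 it measured 0.155, 0.0758, 0.142, 0.313, 0.321, 0.67 and 0.821 CPM. The groups overlap, and the values stay below 1 CPM beside a gene, Ly6a, that exceeds 100 CPM in every deficient library.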
